A study of Homo sapiens with 24 samples.

Results

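The comparison described is the knockdown of WDR77 in LNCaP cells that received no hormone. LNCaP is an established line of androgen-responsive, luminal-type prostate carcinoma cells. Its members are 6 of the 24 RNA-seq libraries of the study, taken by their labels: 3 libraries of cells transfected with siRNAs against WDR77 (S9, S23 and S37) and 3 of cells with a non-targeting control siRNA (S7, S21 and S35). All 6 wells were seeded with 300000 cells, moved to androgen-deprived medium after transfection and given the vehicle, ethanol, for 48 h before harvest. A second pair of siRNA groups, with 3 libraries each, was treated with 5 nM R1881, a synthetic androgen, for the same time and is used only to show where the hormone-free response differs. The other 12 libraries are from cells given an empty vector (EV) or a vector for a WDR77-derived peptide (P3), with vehicle or R1881. The labels call the libraries of a group biological triplicates. They do not give the siRNA sequences or say how many siRNAs were used. Protein was not measured, and all values are transcript levels of a pool of cells, in which a smaller number of expressing cells and less RNA per cell cannot be told apart.

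WDR77, also called MEP50, is a WD-repeat protein that binds the arginine methyltransferase PRMT5 and presents substrates to it. Together they form the core of the methylosome, which places symmetric dimethylarginine on histones and on the Sm proteins of spliceosomal ribonucleoproteins. WDR77 also binds the androgen receptor and acts as a coregulator of it, and in prostate epithelium its movement between cytoplasm and nucleus has been linked to proliferation. The title of the series names the receptor's interaction with WDR77 as its subject.

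The 6 libraries hold between 16665915 and 24029882 counts in genes, and levels are given as CPM, counts relative to a fixed total, on library sizes scaled by the trimmed mean of M values (TMM). All 15 luminal prostate markers examined were detected, with summed levels of 8690 to 9210 CPM in the 6 libraries. Of the defining markers of other cell types, KRT5, KRT15 and KRT17 (basal cells), CDH5 and ERG (endothelium), COL1A2 (fibroblasts) and CD3E (T cells) had 0 counts in every one of the 6 libraries. Other markers of the same cell types were present: DST at 13.2 to 29.8 CPM, ITGB4 at 6.02 to 9.56 CPM and KRT14 at 0.226 to 1.79 CPM of the basal list, COL1A1 at 16.7 to 24.4 CPM and COL3A1 at 5.7 to 8.53 CPM of the fibroblast list, and VWF at 6.15 to 14.2 CPM of the endothelial list. The summed levels in the control and the knockdown libraries were 19.8 to 29.7 and 26.6 to 41 CPM for 8 basal markers, 30.1 to 35.2 and 27 to 31.6 CPM for 11 fibroblast markers, 7.96 to 15.4 and 10.6 to 14.5 CPM for 8 endothelial markers, and 0.844 to 1.45 and 0.652 to 1.3 CPM for 10 immune markers. Of the 11 members of these 4 lists that were tested, edgeR called 0 and DESeq2 called 1, a basal marker, higher, with 3 at an unadjusted p under 0.05 in edgeR. Over all 17893 genes tested, edgeR called 273, and 2284 had an unadjusted p under 0.05. The part of these markers in the results was not tested. The control library S35 stood apart from the rest of its group. It differed from S7 and S21 with a chi-square of 18.4 and 18.1 per degree of freedom over genes, against 4.66 between S7 and S21. Mitochondrially encoded genes took 8.41% of its counts (95% Wilson interval 8.39 to 8.42), against 5.39% to 6.00% in the 5 other libraries. All 39 DNA replication genes and all 34 mitosis genes of the lists used here were lower in S35 than in both S7 and S21, against 6595 of all 17893 genes tested. For this reason the main counts and many of the gene lists are given with S35 and without it, as are some genes whose call or direction changed.

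The 2 genes that fell most clearly were WDR77 itself and SETD7, and the clearest rise was that of PTBP2. WDR77 (chr1:111439890-111449376, minus strand, GRCh38) was at 41.7, 46.7 and 46.6 CPM in the control libraries S7, S21 and S35, and at 11.3, 14.9 and 13.3 CPM in the knockdown libraries S9, S23 and S37. Every knockdown library was far below every control. The log2 fold change was -1.76 ± 0.093 (SE, n = 3 against 3), a 3.39-fold fall with an adjusted p of 5.74e-12 in edgeR's quasi-likelihood F test. Without S35 it was -1.73 (adjusted p of 3.14e-13 in the same test).

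WDR77 starts back to back with ATP5PB, which encodes the peripheral-stalk subunit b of mitochondrial ATP synthase. The RefSeq starts lie at chr1:111449256 and chr1:111449464, with 207 bases between them. That stretch is shown because both genes start from it, and the siRNAs are labelled as directed against WDR77. The letters below are RefSeq's (GRCh38.p14, chr1:111449257-111449463), on the strand of WDR77 and ending just before its start, and the capitals mark the 2 matches to the palindrome TCTCGCGAGA.

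WDR77-ATP5PB: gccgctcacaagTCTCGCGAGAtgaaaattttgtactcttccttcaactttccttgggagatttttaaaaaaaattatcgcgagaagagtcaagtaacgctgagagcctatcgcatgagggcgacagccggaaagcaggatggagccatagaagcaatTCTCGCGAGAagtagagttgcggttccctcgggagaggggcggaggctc

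The palindrome, the longest that recurs in the stretch, was searched for after the stretch was seen. It is present in 0.424% of all 35116 RefSeq promoter entries of 300 bases. ATP5PB was at 215, 226 and 214 CPM in the controls and at 225, 223 and 238 CPM after knockdown, and the groups overlapped (log2 0.06 ± 0.055, adjusted p of 0.709 in edgeR). In GENCODE 29, 673 bases of WDR77 exons, 24% of their length, are shared with AL390195.1 on the same strand, which counting by strand would not separate. In addition, 350 bases of its exons, 12.5% of their length, lie in exons of ATP5PB on the other strand, and reads there cannot be told apart if strand was not used in counting.

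None of the 4 partners of WDR77 in the methylosome list passed the test. PRMT5, the catalytic subunit, was at 70.7, 72.1 and 67.6 CPM in the controls and 59.3, 68.9 and 66.1 CPM after knockdown (log2 -0.11 ± 0.068, adjusted p of 0.522 in edgeR). The substrate adaptors that recruit PRMT5 to its targets gave log2 values of -0.06 for CLNS1A (pICln), -0.11 for RIOK1 and 0.04 for COPRS, with adjusted p-values of 0.781, 0.788 and 0.9 in edgeR. Among the 27 genes of the Sm core, the SMN complex and the LSm proteins, the ribonucleoprotein machinery that PRMT5 methylates or serves, 0 were called by edgeR or DESeq2, 1 had an unadjusted p under 0.05, and the median log2 fold change was 0.00. Over all 17893 genes tested, edgeR called 1.53%, and 2284 had an unadjusted p under 0.05, the shares to set beside the counts in these short lists. PRMT6, which places asymmetric dimethylarginine on histone H3, was the only member called among 8 other arginine methyltransferase genes tested. It was at 97.1, 105 and 96 CPM in the controls and at 61.1, 74.2 and 63.9 CPM after knockdown, without overlap (log2 -0.58 ± 0.073, adjusted p of 3.2e-05 in edgeR, 1.23e-05 without S35). For PRMT1, which makes most of the asymmetric mark in cells, the log2 value was -0.07 (adjusted p of 0.669 in edgeR).

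**Figure D1:**
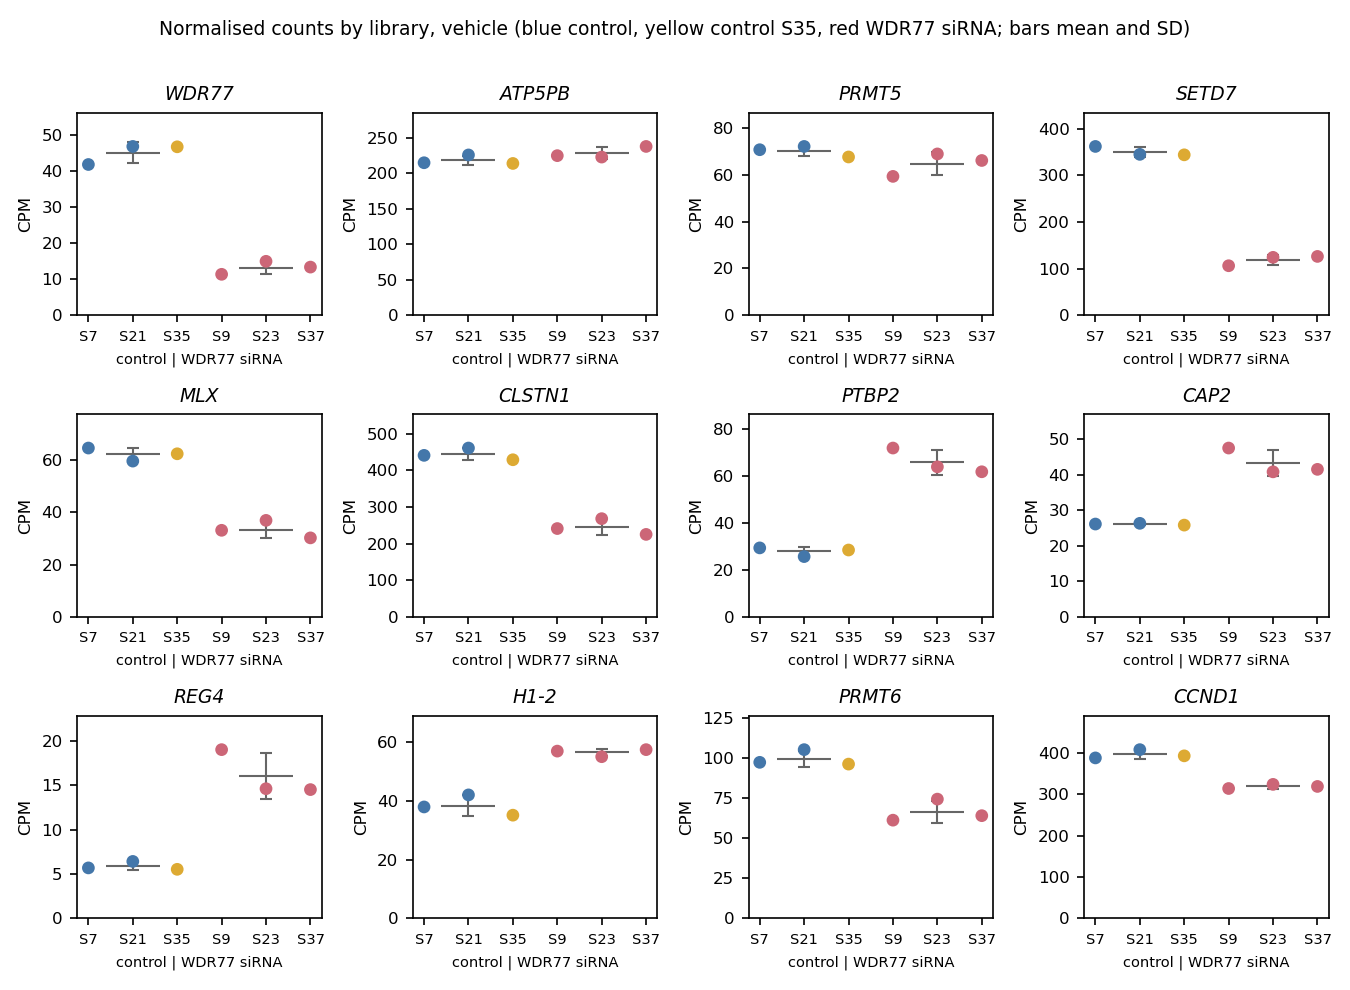
Normalised CPM (vertical axes, from 0) of 12 genes in the 6 vehicle libraries, with the controls S7 and S21 in blue, the control S35 in yellow and the WDR77-siRNA libraries S9, S23 and S37 in red. Bars are the mean and SD of each group. WDR77, SETD7, MLX, CLSTN1, PRMT6 and CCND1 were lower, and PTBP2, CAP2, REG4 and H1-2 higher, in every knockdown library than in every control, while the groups overlapped for ATP5PB and PRMT5.

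Across all genes the response to the knockdown was narrow and mostly of small size. Of 17893 genes tested, 273 (1.53%) were called at an adjusted p under 0.05 in edgeR, 122 higher (0.682%) and 151 lower (0.844%). Only 9 of the higher and 7 of the lower calls reached 2-fold. An unadjusted p under 0.05 was found for 2284 of the 17893 genes, the figure to set beside such counts in the lists. Without S35, 478 of 18444 genes (2.59%) were called, 200 higher (1.08%) and 278 lower (1.51%), and 230 of the 273 genes were among them. The count also moved with other libraries. It was 91 without the knockdown library S9, 105 without S37 and 143 without the control S21, and 71 genes, 19 higher and 52 lower, were called whichever library of the 6 was left out. A set of 66 genes, 15 higher and 51 lower, was called under all 18 alternatives tried, and the genes described below as called throughout belong to it.

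**Figure D2:**
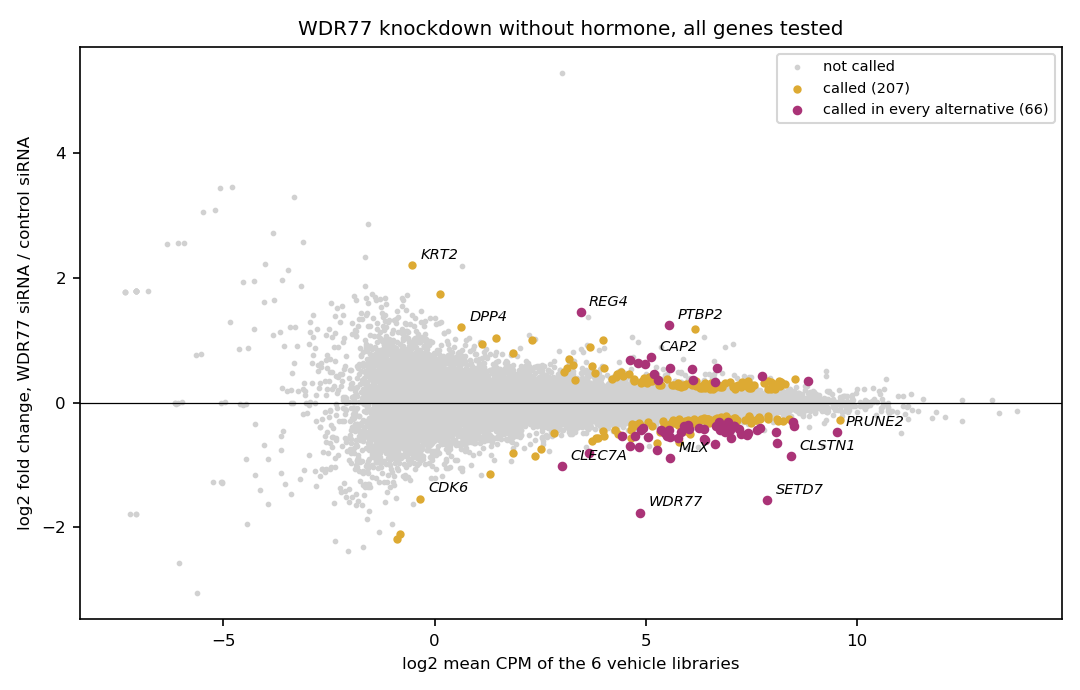
The log2 fold change of WDR77 siRNA over control siRNA (vertical axis) against the log2 mean CPM of the 6 vehicle libraries (horizontal axis), a point per gene tested with counts in these libraries. Of the 273 genes called, 66 were called under every alternative (purple) and 207 were not (yellow). WDR77 and SETD7 stand alone below -1.5 among genes of more than 1 CPM, and the grey point at the top is CH507-513H4.6, a noncoding gene that was high in S23 alone.

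SETD7 is a lysine methyltransferase of histone H3 that also modifies non-histone proteins, the androgen receptor among them. It was an abundant transcript at 362, 345 and 344 CPM in the controls and fell to 106, 124 and 126 CPM after knockdown. The log2 fold change was -1.56 ± 0.066, nearly as deep as that of WDR77, with the smallest adjusted p of the comparison, 7.46e-14 in edgeR (1.52e-15 without S35). The knockdown's effect on SETD7 was lower than the effect of the WDR77-derived peptide, each against its own control (difference -1.40, adjusted p of 5.43e-16 in edgeR).

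Other large falls called throughout affected genes of varied function. MLX, the dimer partner of the glucose-sensing factors MondoA and ChREBP, was at 64.6, 59.6 and 62.4 CPM in the controls and at 33.1, 36.9 and 30.2 CPM after knockdown (log2 -0.89 ± 0.073, adjusted p of 2.87e-08 in edgeR, 7.82e-09 without S35). CLSTN1, a calsyntenin that links cargo vesicles to kinesin, was at 441, 461 and 429 CPM against 241, 268 and 225 CPM (log2 -0.86 ± 0.061, adjusted p of 2.25e-09 in edgeR, 5.53e-11 without S35). Both groups were compact for these genes and did not overlap. At lower levels, CLEC7A, the beta-glucan receptor dectin, went from 10.4, 11.1 and 11.2 CPM to 4.62, 5.17 and 6.26 CPM (log2 -1.02 ± 0.15), and PTGFR, the prostaglandin F receptor, from 14.4, 15.5 and 18.6 CPM to 9.24, 9.19 and 9.2 CPM (log2 -0.81 ± 0.12). The edgeR adjusted p-values were 3.73e-04 and 4.26e-04.

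A further group of regulatory genes fell by 0.6 to 0.75 on the log2 scale and was called throughout. It held NCS1, a neuronal calcium sensor (log2 -0.75), PABIR1, an inhibitor of protein phosphatase 2A (-0.72), CBX7, a subunit of Polycomb repressive complexes (-0.70), TMEM134 (-0.66), CALM3, one of the calmodulin genes (-0.64), and MAZ, a zinc-finger transcription factor (-0.61), with edgeR adjusted p-values from 4.62e-07 for TMEM134 to 4.3e-05 for CBX7. For CALM3 the 6 values were 348, 364 and 301 CPM in controls and 206, 224 and 217 CPM after knockdown. CALM2, which encodes the identical protein, did not follow it. It was at 254, 261 and 238 CPM against 313, 312 and 327 CPM and was called higher (log2 0.34, adjusted p of 0.00162 in edgeR). The transcripts of the copies differ in the untranslated parts, but shared reads in the coding part could be split between the copies. For MAZ, 43.8% of the exon length overlaps a noncoding gene on the other strand, for MLX 18.1% overlaps PSMC3IP, and for CBX7 17.9% overlaps another antisense gene, so part of their counts is uncertain.

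PHLDA2, ABHD14B and SLC6A9 complete the 15 largest falls, with log2 values of -0.85, -0.63 and -0.62 and edgeR adjusted p-values of 0.00855, 8.66e-04 and 0.00624. SLC6A9 encodes the glycine transporter GlyT1 and was 1 of 20 amino acid transporters tested, a list with a median of -0.22 (-0.21 without S35). In it, 11 members were at an unadjusted p under 0.05, against 2284 of all 17893 genes tested. With all 6 libraries edgeR called SLC6A9 alone, DESeq2 called 3 of them lower, and edgeR without S35 called 3 lower, SLC6A9, SLC6A6 and SLC38A9. SLC6A9 was not called in at least 1 of the alternatives. CCND1, cyclin D1, showed a small fall with little scatter, from 388, 408 and 393 CPM to 314, 324 and 319 CPM (log2 -0.31 ± 0.052, adjusted p of 0.00108 in edgeR), and was called throughout.

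PTBP2 is the neural relative of the polypyrimidine-tract binding protein PTBP1 and regulates alternative splicing. Its controls were at 29.3, 25.6 and 28.4 CPM and the knockdown libraries at 71.8, 63.8 and 61.7 CPM, a 2.37-fold rise without overlap. The log2 fold change was 1.24 ± 0.080 (adjusted p of 3.28e-10 in edgeR, 5.53e-11 without S35). PTBP1, which is known to repress PTBP2 by exon skipping, was itself called lower, at 343, 356 and 309 CPM in the controls and 268, 285 and 268 CPM after knockdown (log2 -0.29 ± 0.060, adjusted p of 0.00924 in edgeR). Its call was lost in some alternatives, and it was named after its values were seen.

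REG4, a secreted lectin of gastrointestinal and some prostate tumours, had the largest rise called throughout. It was at 5.68, 6.41 and 5.52 CPM in the controls and at 19, 14.6 and 14.5 CPM after knockdown (log2 1.45 ± 0.16, adjusted p of 5.4e-06 in edgeR). S9 was the highest library, and the groups did not overlap.

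The next rises were smaller. CAP2, which severs and recycles actin filaments, was at 26.1, 26.3 and 25.8 CPM in the controls and 47.5, 40.8 and 41.5 CPM after knockdown (log2 0.73 ± 0.068, adjusted p of 3.96e-07 in edgeR). KIF5C, a kinesin heavy chain, and CDK17, a cyclin-dependent kinase of the PCTAIRE family, had log2 values of 0.64 and 0.62 and edgeR adjusted p-values of 9.03e-05 and 4.79e-05. All of these were called throughout. Larger fold changes at low counts were less stable. DPP4, a surface peptidase, was at 0.645, 1.09 and 1.09 CPM against 2.5, 2.21 and 1.79 CPM (log2 1.21, adjusted p of 0.015 in edgeR). TMPRSS6, BCAS1, TNFSF4, TRGC1 and KIAA0895 gave log2 values of 1.01, 0.89, 0.69, 1.03 and 0.59 with edgeR adjusted p-values of 0.00727, 0.0142, 0.0131, 0.0487 and 0.031. Each of these 6 calls was lost when some single library was left out. The pseudogene ARHGAP42P2 (log2 1.74) may share reads with its parent gene. KRT2 (log2 2.2) and CDK6 (log2 -1.54) were each at less than 2 CPM in every vehicle library and were not called without S35 (edgeR adjusted p of 0.0994 and 0.0838). KRT2, like CALM2 above, was named after its values were seen.

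Replication-dependent histone genes supply histones for newly made DNA, and most of their transcripts end in a stem-loop rather than a poly(A) tail, so the poly(A) libraries used here capture only a polyadenylated fraction. All 9 members tested had a log2 value above 0, while 9120 of all 17893 genes were below 0. The list's median was 0.33 (0.36 without S35), against a median of 0.00 over all genes. The test was passed by 2 members, H1-2 and H2AC6, where 0.682% of all genes were called higher. Outside this list, the histone gene H4C9 was called as well, and it is named after its call was seen. H1-2, a linker histone, was at 37.9, 42 and 35.1 CPM in the controls and 56.9, 55 and 57.4 CPM after knockdown (log2 0.56 ± 0.073, adjusted p of 4.79e-05 in edgeR). H2AC6 was at 57.7, 58.6 and 51.3 CPM against 81.2, 77.9 and 83.8 CPM (log2 0.53 ± 0.075, adjusted p of 1.36e-04 in edgeR). H2BC21 was at 85.5, 77.4 and 64.2 CPM against 104, 111 and 97.1 CPM (adjusted p of 0.0553, and of 0.0492 without S35, in edgeR). Histone genes are near-identical copies of each other, so the split of reads among them is uncertain.

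The promoters of the 2 called members of this list are shown because they share an element with their family. Each is the stretch of 120 bases before the RefSeq start (GRCh38.p14), chr6:26056471-26056590 on the minus strand for H1-2 and chr6:26124052-26124171 on the plus strand for H2AC6. The capitals mark CCAAT on either strand (CCAAT or ATTGG), the letters bound by the factor NF-Y.

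H1-2: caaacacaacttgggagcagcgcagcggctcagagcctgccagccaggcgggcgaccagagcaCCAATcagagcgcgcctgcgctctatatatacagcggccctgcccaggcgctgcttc

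H2AC6: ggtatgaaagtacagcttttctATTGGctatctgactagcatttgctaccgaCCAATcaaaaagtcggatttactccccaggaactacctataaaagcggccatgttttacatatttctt

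CCAAT was found in 10 of 11 promoter entries of this histone list (90.9%), in 42.4% of 139 entries of genes called higher, in 34.1% of 173 entries of genes called lower and in 34.6% of all entries. Those of genes called higher came from 97 of the 122 genes, and those of genes called lower from 125 of the 151.

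The medians of the DNA replication and mitosis lists moved with the choice of control library. DNA replication genes are switched on before S phase by E2F factors, and mitosis genes later by the MuvB complex with FOXM1 and by NF-Y. With S35 included, 0 of 39 replication genes and 0 of 34 mitosis genes were called by edgeR or DESeq2, 0 of them had an unadjusted p under 0.05, and the medians were -0.04 and 0.05. Without S35 the medians were -0.29 and -0.23, with 5 genes of each list called lower and 0 higher. Over all genes in that fit, 1.51% were called lower and 1.08% higher. A log2 value below 0 was then found for 38 of 39 and 30 of 34 genes, against 9041 of all 18444. MKI67, the proliferation marker Ki-67, shows the pattern. It was at 119 and 117 CPM in S7 and S21 and at 45.2 CPM in S35, while the knockdown libraries lay between, at 83, 87.2 and 94.1 CPM. Without S35 its log2 fold change was -0.42 (adjusted p of 0.00416 in edgeR), and with S35 it was -0.09 (adjusted p of 0.951).

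The same order held for genes of both phases. UHRF1, which couples DNA methylation to replication, was at 32.8, 35.9 and 11.8 CPM in S7, S21 and S35 and at 18.4, 25.7 and 23.1 CPM after knockdown (log2 -0.60 without S35, adjusted p of 0.0041 in edgeR). CDC20, the activator of the anaphase-promoting complex, was at 52.3, 57.5 and 24.1 CPM against 35.7, 40 and 42.8 CPM (log2 -0.47 without S35, adjusted p of 0.00715 in edgeR). Knockdown levels in these 2 genes were below S7 and S21 and above S35. For 26 of the 39 replication genes and 16 of the 34 mitosis genes, all 3 knockdown libraries lay in this interval. Over all genes tested this held for 617 of 17893. The other genes called lower without S35 were MCM5 (log2 -0.53), MCM2 (-0.42), GINS1 (-0.41) and TK1 (-0.46) of the replication list, and FOXM1 (-0.53), TPX2 (-0.43) and CDCA8 (-0.48) of the mitosis list. How far the knockdown lowered these genes thus depended on which control libraries were taken as the reference, and the cause of the low values in S35 was not tested.

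The promoters of 3 of these genes are shown as examples of the elements searched, and were chosen after the matches were seen. The stretches are 120 bases before the RefSeq start (GRCh38.p14), at chr19:4909381-4909500 on the plus strand for UHRF1, chr1:43358861-43358980 on the plus strand for CDC20 and chr10:128126424-128126543 on the minus strand for MKI67. In UHRF1 the capitals mark an E2F match (TTTCCCGC, TTTGGCGC or TTTGGCGG on either strand). In CDC20 and MKI67 they mark CCAAT and the cell cycle homology region TTTGAA on either strand, of which the last pair in MKI67 overlaps.

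UHRF1: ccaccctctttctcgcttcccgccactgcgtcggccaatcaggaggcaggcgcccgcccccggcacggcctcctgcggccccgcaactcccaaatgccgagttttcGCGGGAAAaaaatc

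CDC20: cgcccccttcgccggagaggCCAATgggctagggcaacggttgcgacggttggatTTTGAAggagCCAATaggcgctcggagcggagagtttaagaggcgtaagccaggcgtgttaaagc

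MKI67: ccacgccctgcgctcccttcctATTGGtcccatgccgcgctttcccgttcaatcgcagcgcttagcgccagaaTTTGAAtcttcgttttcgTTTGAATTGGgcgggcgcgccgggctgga

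Within 300 bases around the start, an E2F match was present in 45.5% of 44 promoter entries of the replication list, 9.38% of 32 entries of the mitosis list and 2.89% of all entries. CCAAT was common in both lists, in 59.1% of the replication and 81.2% of the mitosis entries, against 34.6% of all, and UHRF1 holds it too, unmarked above. Of the 4 replication genes called lower without S35 that have a promoter entry, 2 held an E2F match and 3 held CCAAT. All 3 such mitosis genes held both of their motifs. The homology region TTTGAA, added after the data were seen, was present in 68.8% of the mitosis entries, 2.27% of the replication entries and 15.2% of all. In genes called lower with all 6 libraries the shares were 2.31% for E2F and 9.83% for TTTGAA, and in genes called higher 3.6% and 10.1%.

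**Figure D3:**
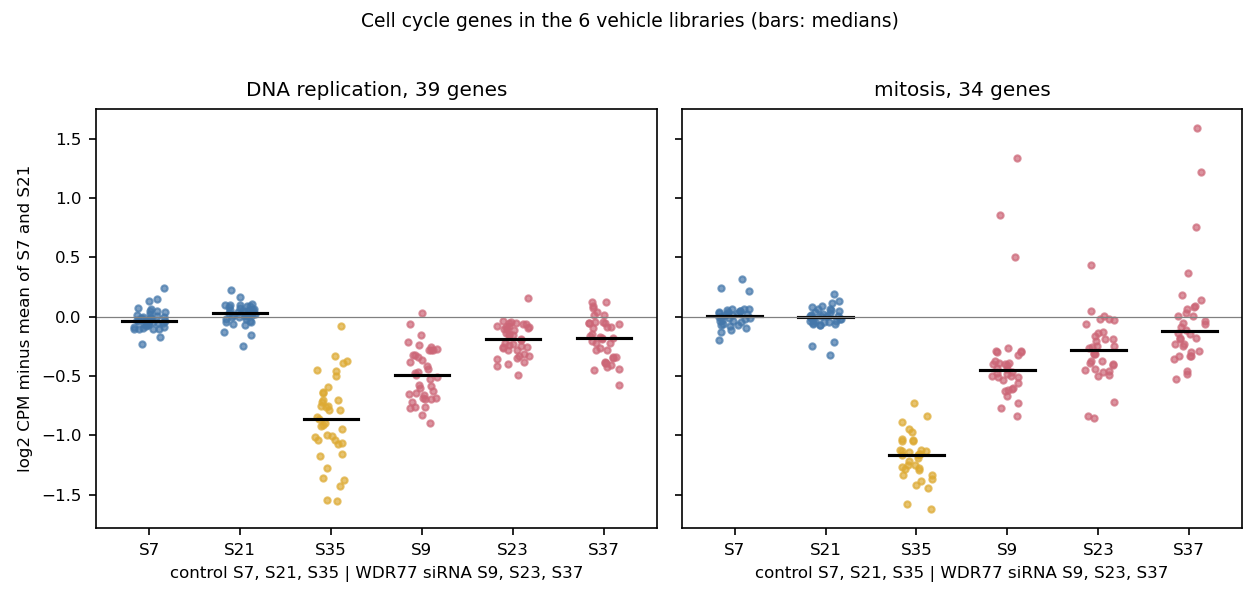
The log2 CPM of each gene minus its mean in the controls S7 and S21 (vertical axis) in the 6 vehicle libraries (horizontal axis), for 39 DNA replication and 34 mitosis genes. Points are genes and bars medians. From log2 CPM with a prior count of 2, which the plotted values do not include, the medians are -0.86 and -1.16 in S35 (yellow). In the knockdown libraries (red) they are then -0.49, -0.18 and -0.18 for replication and -0.45, -0.28 and -0.12 for mitosis.

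A few mitosis genes went the other way in 2 of the knockdown libraries. CENPE, a kinetochore motor, was at 22.2 and 26.5 CPM in S9 and S37 but at 5.32 CPM in S23, with 10.4, 7.4 and 2.85 CPM in the controls. CENPF, at 61.8 and 79.3 against 19.1 CPM, and ASPM, at 15.5 and 18.5 against 6.07 CPM, were high in the same 2 libraries. None of these 3 was called (edgeR adjusted p of 0.462, 0.6 and 0.745). Their longest transcripts measure 8612 to 10887 bases, with 35.3% to 40.8% GC. Over 493 genes with a transcript of at least 8000 bases and under 42% GC, the median deviation from the mean of the 6 libraries was 0.08 in S9 and 0.11 in S37, against -0.06 in S23 and 0.01, -0.09 and -0.05 in S7, S21 and S35. Its part in these 3 values was not tested.

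Androgen target genes are the question that a receptor coregulator raises. KLK3, which encodes prostate-specific antigen, was at 203, 204 and 52.6 CPM in the controls and at 109, 188 and 206 CPM after knockdown. S35 and S9 were the low libraries, the groups overlapped, and the log2 value was 0.13 ± 0.45 (adjusted p of 0.951 in edgeR). Without S35 its sign turned, to -0.27 ± 0.24 (adjusted p of 0.711 in edgeR). KLK2, a neighbouring kallikrein, was at 10.1, 9.04 and 2.31 CPM against 5.92, 9.45 and 7.51 CPM (log2 0.11 with S35 and -0.30 without it, adjusted p of 0.957 and 0.523 in edgeR). FKBP5, a receptor chaperone, was at 39.2, 42.4 and 26.6 CPM against 36.1, 42 and 40.2 CPM (log2 0.13 with S35 and -0.04 without it, adjusted p of 0.815 and 0.897 in edgeR). TMPRSS2, a serine protease, was higher in every knockdown library, at 171, 166 and 127 CPM against 181, 209 and 225 CPM, but missed the threshold (log2 0.41 ± 0.11, adjusted p of 0.112 with S35 and 0.0812 without it, both in edgeR). Of 41 androgen-induced genes, edgeR called 2 higher, NDRG1 and PMEPA1, and 1 lower, SGK1, against 0.682% and 0.844% of all genes. An unadjusted p under 0.05 was reached by 11 of the 41, against 2284 of all 17893 genes tested. DESeq2 called 7 of the 41 higher and 1 lower. The list's median was 0.13, and without S35 it was 0.04 with 2 called higher and 1 lower. PMEPA1 was not called without S35 (adjusted p of 0.0558 in edgeR).

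Of 16 steroid enzyme genes tested, UGT2B17, UGT2B11 and STS were called higher and SRD5A1 lower in edgeR, with a median of 0.14, where 0.682% of all genes were called higher and 0.844% lower. Without S35, 2 were called higher and 1 lower, with a median of 0.12. UGT2B17, which inactivates androgens by glucuronidation, was at 344, 327 and 291 CPM in the controls and 418, 396 and 436 CPM after knockdown (log2 0.38 ± 0.061, adjusted p of 8.66e-04 in edgeR). The UGT2B genes are close copies of each other, so their counts are uncertain, and UGT2B11 was not called without S35 (adjusted p of 0.0806 in edgeR). STS, the sulfatase that frees steroid precursors, was at 27.9, 26.3 and 29 CPM against 35.9, 35.5 and 36.2 CPM (log2 0.37 ± 0.075, adjusted p of 0.00954 in edgeR). SRD5A1, which reduces testosterone to dihydrotestosterone, was at 46.7, 46.6 and 48.5 CPM against 33, 35.2 and 36.4 CPM (log2 -0.44 ± 0.068, adjusted p of 5.38e-04 in edgeR). Neither STS nor SRD5A1 showed overlap between the groups.

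To place the response among hormone-regulated genes, 2 lists were taken from the EV cells, which share no library with the knockdown: 1262 genes raised and 1390 genes lowered at least 2-fold by R1881. Of the raised genes, 1200 were tested in the knockdown, of which 28 were called higher and 4 lower, with a median of 0.05. Of the lowered genes, 1341 were tested, of which 5 were called higher and 7 lower, with a median of 0.02. Over all genes the shares called were those given above, and the median was 0.00. Without S35 the counts were 41 higher and 10 lower for the raised genes and 14 higher and 44 lower for the lowered genes. The balance of calls among the lowered genes thus changed with the removal of S35.

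Lists of interferon and innate sensing, p53 target and integrated stress response genes held 1 or 2 calls each in edgeR. In edgeR, 10 of 35, 7 of 28 and 11 of 27 of them had an unadjusted p under 0.05, against 2284 of all 17893 genes. DESeq2 called 1 higher, 2 lower and 2 lower in these lists. Of 23 unfolded protein response and 12 heat shock genes tested, edgeR called 0, with 7 and 3 at an unadjusted p under 0.05. DESeq2 called 1 and 0 of them, and without S35 edgeR called 0 and 1. Over all genes, edgeR called 1.53%. Among 35 interferon and innate sensing genes IFI6 alone was called, at 11, 12.2 and 8.55 CPM in the controls and 27.9, 17 and 18.9 CPM after knockdown (2-fold, adjusted p of 0.00855 in edgeR, 0.0175 without S35), and the list's median was 0.15 (0.12 without S35). ISG15, the most familiar member, was at 36.7, 38.5 and 34 CPM against 50.9, 39.4 and 41.5 CPM and was not called. In 28 p53 target genes the median was -0.17, with BAX and SESN2 called lower, and in 27 integrated stress response genes it was -0.24, with SESN2 called lower. Neither gene was called without S35 (edgeR adjusted p of 0.111 and 0.102), and the medians were then -0.08 and -0.13, with the death receptor TNFRSF10B of the p53 list called lower in their place. SLC3A2, an amino acid transporter subunit of the stress list, was at 211, 232 and 328 CPM in the controls, with the highest value in S35, and at 184, 194 and 190 CPM after knockdown (adjusted p of 0.23 in edgeR).

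Of 27 ribosome biogenesis genes tested, 25 had a log2 value below 0, against 9120 of all 17893 genes. The list's median was -0.11 (-0.18 without S35). FBL, the methyltransferase fibrillarin of the nucleolus, was called lower, at 110, 118 and 97.4 CPM against 80.3, 87.5 and 91.1 CPM (log2 -0.33 ± 0.070, adjusted p of 0.0139 in edgeR, 8.52e-04 without S35). Without S35, 3 genes of this list were called lower, FBL, NOP58 and MYBBP1A, against 1.51% of all genes. MYC was at 101, 102 and 80.1 CPM against 62.8, 78.9 and 77.3 CPM (adjusted p of 0.286 in edgeR). Among the single genes called in other lists were SREBF2 (log2 -0.33), the master regulator of cholesterol synthesis, DOT1L (-0.34), a histone methyltransferase, KAT2B (0.36), an acetyltransferase and receptor coactivator, LGR4 (0.38), a WNT co-receptor, and TNRC6B (0.33), a partner of the Argonaute proteins. Lists of insulin signalling, autophagy, respiratory chain, splicing and immediate early genes also had a single call each, PIK3CB (0.26), NBR1 (0.21), NDUFA4 (0.26), SF1 (-0.22) and IER2 (-0.36). Of these 10 genes, KAT2B was called throughout. Without S35, edgeR called 5 of 41 splicing genes and 3 of 24 histone modifier genes lower, and 2 of 13 siRNA machinery genes higher. Over all 18444 genes in that fit, 278 were called lower and 200 higher. Of the 41 splicing genes, 33 were then below 0, against 9041 of all 18444. The immediate early median was -0.18 with S35 and 0.02 without it. For 13 mitochondrially encoded genes the median was -0.24 with S35 and -0.01 without it. All 13 were higher in S35 than in S7 and S21, against 6577 of all 17893 genes tested. For 78 cytosolic ribosomal protein genes the median was -0.04 with S35 and 0.04 without it. With all 6 libraries, 0 of the 78 were called by edgeR or DESeq2 and 4 had an unadjusted p under 0.05, against 2284 of all 17893 genes.

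**Figure D4:**
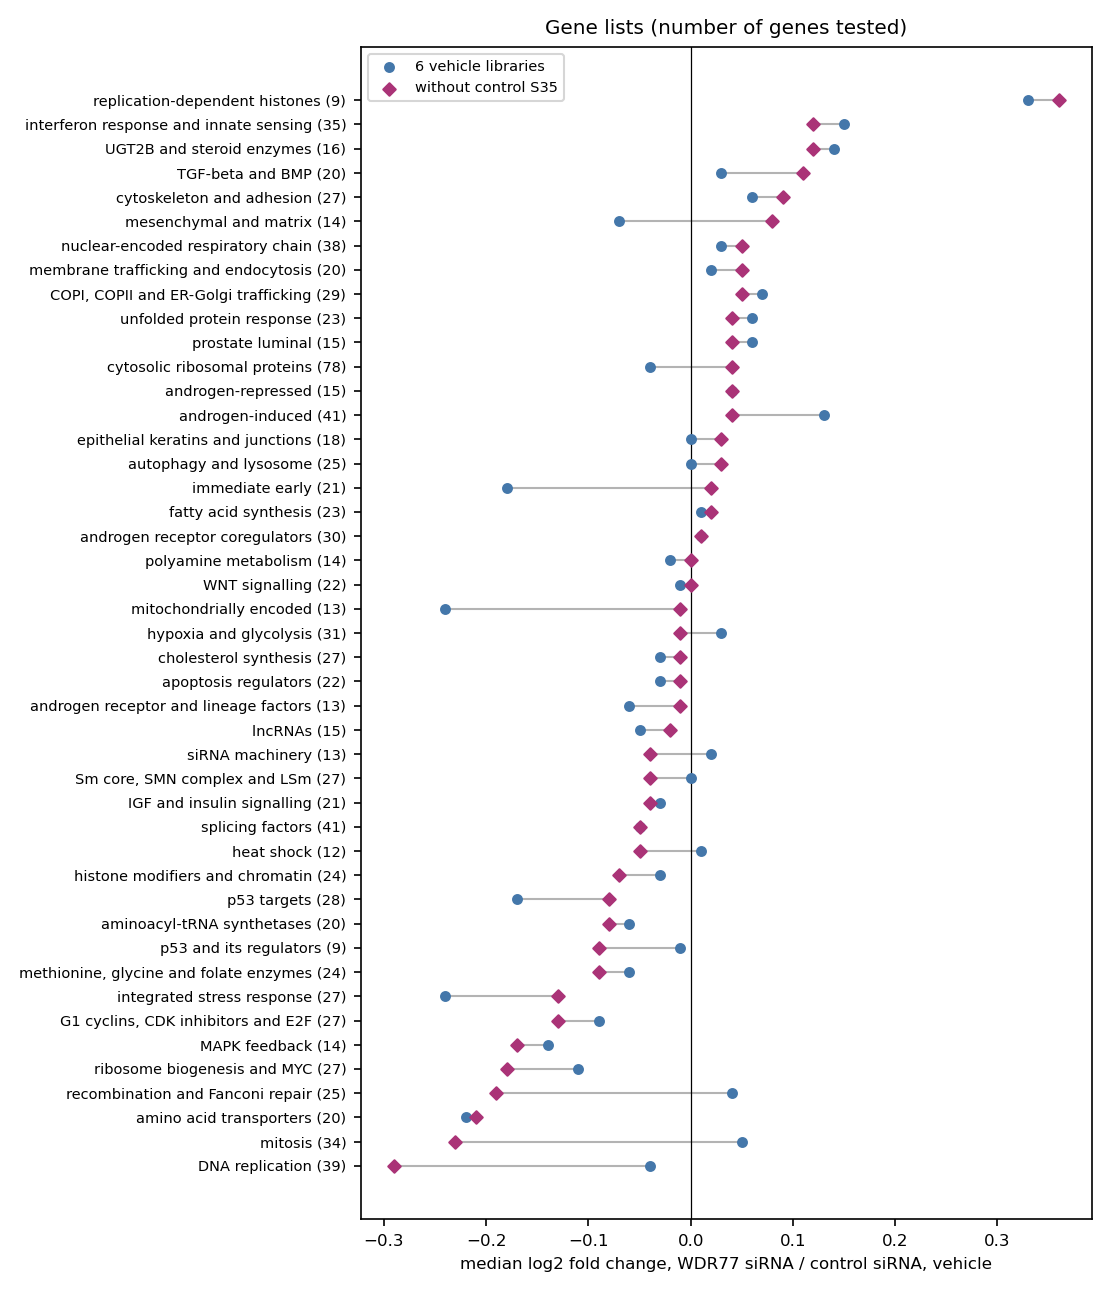
Median log2 fold change of WDR77 siRNA over control siRNA in vehicle (horizontal axis) for each gene list with at least 9 genes tested (vertical axis, number tested in brackets), from all 6 libraries (circles) and without control S35 (diamonds), in the order of the diamonds. Histones are at the top with 0.33 and 0.36, and DNA replication is at the bottom, where the median moved from -0.04 to -0.29.

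Called genes differed in base composition by direction. The median GC content of the longest transcript was 42.1% in genes called higher, 55.5% in genes called lower and 48.4% in all genes tested. In genes called higher and lower after knockdown under R1881, the medians were 42.6% and 56.8%. After a correction of each library for GC content, 257 genes were called in vehicle, 128 higher and 129 lower, of which 199 were among the 273. The medians were then 48.8% and 50.3%. The correction removes each library's trend with GC content, so closer medians follow from it and are not a separate result. The Pearson correlation of a library's deviations with GC content ran from -0.089 in S37 to 0.078 in S35. WDR77, SETD7, PTBP2, REG4, MLX and CLSTN1 were called after the correction as well.

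The knockdown under R1881, which has its own control libraries, gave 1291 calls (7.22%), 698 higher (3.9%) and 593 lower (3.31%). Of the 273 genes called without hormone, 165 (60.4%) were called in the same direction under R1881, which is 12.8% of the calls there, and 93.8% had the same sign, against 61.6% of all genes tested. SETD7 was at 615, 638 and 643 CPM in the R1881 controls and 248, 281 and 272 CPM after knockdown (log2 -1.24), and PTBP2 at 13.5, 15.1 and 14.1 CPM against 34.4, 34.4 and 36.7 CPM (log2 1.30). WDR77 was at 63.8, 67.3 and 66.1 CPM against 15.6, 13.4 and 13.8 CPM (log2 -2.2), a difference from the vehicle effect of 0.44 that did not pass the test (adjusted p of 0.294 in edgeR). The depletion was thus present in both conditions.

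**Figure D5:**
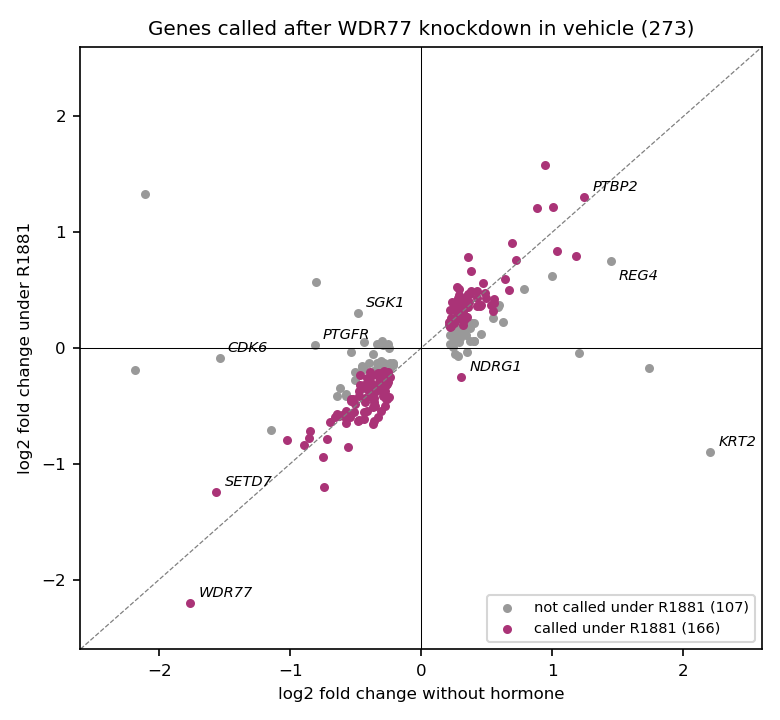
The log2 fold change of WDR77 siRNA over control siRNA under R1881 (vertical axis) against that without hormone (horizontal axis) for the 273 genes called without hormone, with the line of equal change dashed. The 166 genes also called under R1881 are purple, and NDRG1 is the only one of them with opposite signs.

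The test of the difference between the knockdown's effects in vehicle and in R1881 called 0 of 17893 genes in edgeR (0%), with 1484 genes at an unadjusted p under 0.05 and 56 called by DESeq2. Without S35, 43 of 18444 genes (0.233%) passed in edgeR, 29 with a higher (0.157%) and 14 with a lower (0.0759%) effect in vehicle. The smallest adjusted p-values with S35 were 0.0569 for NDRG1 and PFKFB2 and 0.0888 for a group of genes that includes GLUL, CD274, SRD5A1, PTGFR and SGK1. NDRG1, a hormone- and hypoxia-induced gene, was at 69.5, 75.5 and 82.3 CPM against 98.1, 91.2 and 91.9 CPM without hormone (log2 0.31, adjusted p of 0.0238 in edgeR), and at 1320, 1530 and 1570 CPM against 1200, 1280 and 1220 CPM with it (log2 -0.25, adjusted p of 0.0204 in edgeR). It rose after knockdown without hormone and fell with it, and the difference was 0.56 ± 0.097 (0.65 without S35, adjusted p of 2.15e-04 in edgeR).

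PTGFR and SRD5A1, called lower in vehicle, had log2 values of 0.03 and 0.06 under R1881. The difference between conditions was -0.84 and -0.49 (adjusted p of 0.0888 for both in edgeR), and without S35 it passed for SRD5A1 (0.0402) and not for PTGFR (0.0757). CD274, which encodes PD-L1, was at 30.9, 32.9 and 30.2 CPM against 29.2, 34.5 and 35.8 CPM in vehicle, and at 14.8, 15.1 and 14.7 CPM against 22.9, 28.0 and 27.5 CPM under R1881 (difference -0.72, adjusted p of 0.0888, and of 0.0155 without S35, in edgeR). PFKFB2, a regulator of glycolysis, and GLUL, glutamine synthetase, likewise had log2 values of -0.15 and -0.03 in vehicle and of 0.42 and 0.39 under R1881.

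Mitosis genes held 5 of the 43 differences found without S35. Their median log2 fold change was -1.02 under R1881, against -0.23 in vehicle without S35. MKI67 was at 48.1, 51.6 and 48 CPM in the R1881 controls and 17, 22.9 and 17.7 CPM after knockdown (log2 -1.36). The difference from vehicle was 0.96 ± 0.12 without S35 (adjusted p of 1.55e-04 in edgeR) and 1.27 ± 0.47 with it (adjusted p of 0.546 in edgeR).

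Against the peptide, the knockdown's effect in vehicle differed for 1726 of 18999 genes (9.08%) in edgeR, 956 with a higher (5.03%) and 770 with a lower (4.05%) value after knockdown. WDR77 was among them (difference -1.68, adjusted p of 1.4e-13), as were H1-2 (0.94, adjusted p of 2.25e-07) and CCND1 (-0.32, adjusted p of 0.00192). The comparison joins 2 experiments, an expression construct and siRNAs, and any other difference between them cannot be told apart from the agents.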

How the data were processed

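Gene counts were used as deposited by the authors. Per the submitters' processing notes, bcl2fastq 2.20, STAR 2.7.9a, featureCounts of Subread 1.6.4 and the GRCh38.p7 build were used, and per the labels' protocols the libraries were made from poly(A)-enriched RNA. Neither the strand setting nor the annotation release is given in the sources used here. GENCODE 29 supplied positions, lengths and GC content.

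The 12 siRNA libraries were fitted together, with a mean per group, in edgeR 4.0.16 (R 4.3.3) by the robust quasi-likelihood F test, after filterByExpr and TMM scaling. A gene was called where its p, adjusted by the Benjamini-Hochberg method, was under 0.05. Standard errors were derived from the F statistic. The test with the peptide used the EV and P3 vehicle libraries as well. DESeq2 1.42.0, other scalings, filters and library sets, a replicate block and GC-corrected offsets were alternatives. The procedure was tested on simulated data. Total counts ran from 16665915 to 24260446 per library, and intervals cover counting error only. No libraries of a group were duplicates (chi-square per degree of freedom of at least 2.41).

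Named genes are WDR77, the methylosome, KLK3, KLK2, TMPRSS2 and FKBP5, the 15 largest called changes in each direction with at least 1 CPM, no overlap and a call without S35, the members of every list that ranked first by adjusted p (4 at most), and the 5 genes with the smallest adjusted p for the difference between vehicle and R1881. Other names are said to have been chosen after their values were seen, or stand for a list or a call count. The members, gene lists and rules were chosen with earlier results of these data known. Some genes that the rule names are not reported here.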

Additional observations from a re-analysis of the deposited data

How the results depend on the processing

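Counts of called genes moved with the settings, while none of the 230 named genes changed direction as a call. With 273 genes called in vehicle (122 higher, 151 lower), DESeq2 called 436 (230 higher), all 24 libraries in the fit gave 491 (211 higher, 280 lower), no filter on low counts gave 422 (193 higher, 229 lower), and only the 6 libraries compared gave 127 (44 higher, 83 lower). Leaving out a library gave 91 to 478, with 30 to 200 higher and 61 to 278 lower, the lowest without S9 and the highest without S35. Settings added after seeing the data and without S35 gave 589 with DESeq2 (269 higher, 320 lower) and 454 with GC correction (194 higher, 260 lower). The difference between vehicle and R1881, with 0 calls in edgeR (1484 at an unadjusted p under 0.05), gave 56 with DESeq2, 96 with DESeq2 without S35, 3 with GC correction, 48 with GC correction without S35, 40 with all 24 libraries, 112 with no filter, 1 without mitochondrially encoded genes, 8 with 2 libraries a group, and 0 to 43 when a library was left out. Under R1881 the 1291 calls became 1983 in the fit without S35, 347 with 2 libraries a group and 587 to 1097 when a library was left out. The 1726 differences from the peptide became 949 with 2 libraries a group and 874 to 1858 when a library was left out, with 874 without the P3 library S5 and 1085 without the EV library S15. Causes of these shifts were not tested, and an effect of fewer libraries cannot be told apart from that of the library left out.

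By the order of sample numbers, the correlations of deviations were -0.13 for S7 with S9, 0.11 for S21 with S23 and -0.17 for S35 with S37 over 11440 genes. With so few pairs, and S35 apart from its group, these values cannot decide whether the sample numbers pair the libraries. A replicate block on the sample numbers gave 335 calls in vehicle and 16 for the difference, against 273 and 0 without the block. At these depths, a level under 3 counts (0.125 to 0.18 CPM) cannot be told from 0.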

Other observations

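Called genes that lie within 50000 bases of each other formed 10 pairs, and in all 10 both genes moved in the same direction. They include COASY and MLX (lower, 790 bases apart), ADAM10 and MINDY2 (higher, 21213 bases apart), and MAP3K13 and TMEM41A (lower, with overlapping spans). These pairs were chosen after the data were seen. The share of same-direction pairs among all neighbouring genes tested is not given here, so no excess is claimed for the 10. The exons of MAP3K13 and TMEM41A share 909 bases on opposite strands. The pairs also include RTL8C with RTL8A and ZNF613 with ZNF615, genes of the same families. The part of shared reads in these pairs was not tested.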
